A study of Mus musculus with 12 samples.

Results

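Cytochrome P450 genes, the genes of a family of haem enzymes that oxidise drugs, plant compounds, fatty acids, sterols and retinoids, made up 58 of the 17175 genes measured in small intestine of Bmpr1a cKO and WT mice. They were taken by symbol, as every gene whose name starts with Cyp and a digit, leaving out Cyp51 and Cyp24a1. All 58 were found by identifier in GENCODE M21 (GRCm38, the mm10 build of the deposited table) under the same symbol and as protein coding genes. The filter on low values removed 0 of the 17175 genes, so passing it says nothing about the level of a gene. RNA from samples labelled small intestine was sequenced in 4 groups of 3 libraries. These were distal and proximal segments of Bmpr1a cKO mice and distal and proximal segments of WT mice. The product of Bmpr1a is a receptor of BMP ligands, and the study asked how BMP signalling in the epithelium relates to villus length along the small intestine. The Cre driver, the strain, sex and age of the mice and the borders of the segments are not given in the sources used here. The labels do not say whether libraries of a group are separate animals, pools or repeats. A p-value therefore reflects the spread among libraries within groups, pooled over the 4 groups of 3 libraries. How much of this spread is technical is not known.

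P450 enzymes of families 1 to 3 sit in the membrane of the endoplasmic reticulum, take electrons from the reductase Por and handle foreign compounds. In the gut they are found mainly in villus enterocytes, where they meet food-borne compounds before the liver does. The transcription of many of them is switched on by ligand-bound receptors, with Ahr acting on family 1, the constitutive androstane receptor Nr1i3 on Cyp2b and the pregnane X receptor Nr1i2 on Cyp3a. Family 4 enzymes hydroxylate the far end of fatty acids and of signalling lipids such as leukotriene B4, and the Cyp4a genes are classic targets of Ppara. Cyp26 enzymes clear retinoic acid, and Cyp7b1, Cyp11a1, Cyp17a1, Cyp27a1 and Cyp39a1 act on sterols and steroids.

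Depth lay between 11242024 and 17722756 reads per library, of which 9.75 to 27.7% in cKO libraries and 17.4 to 37.7% in WT libraries were mitochondrially encoded. Bmpr1a itself had 511, 668 and 486 scaled reads in cKO distal libraries and 438, 527 and 631 in WT distal libraries, and 911, 833 and 1087 in cKO proximal libraries against 1029, 772 and 1019 in WT proximal libraries. Counts over the whole gene do not show whether an exon was deleted, so they did not check the genotype labels. Both cKO libraries numbered 1 held 0 reads of 4 Y-linked genes, and the other 10 libraries held 1251 to 2390, and results that rest on them are given with and without these 2 libraries. The small intestine label was checked with 5 epithelial and 5 enterocyte markers, all of which had reads in every group. In distal libraries the 5 enterocyte markers summed to 284000 to 442000 scaled reads in cKO and 105000 to 256000 in WT, and the 5 B cell markers to 115 to 383 in cKO and 5430 to 15500 in WT. In proximal libraries the enterocyte sums were 367000 to 376000 in cKO and 249000 to 369000 in WT, and the B cell sums 169 to 299 in cKO and 422 to 2520 in WT. Of the hepatocyte list, 2 of 5 markers were measured, and their sum stayed between 16.4 and 196 scaled reads in all 12 libraries. The 5 smooth muscle markers summed to 103 to 199 in cKO distal and 184 to 433 in WT distal libraries. In proximal libraries they summed to 37.4 to 45.6 in cKO and 65.6 to 145 in WT. The samples thus held little muscle RNA, and they are not taken here as the full wall of the intestine.

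P450 transcripts took a larger share of the RNA in cKO than in WT distal intestine. They made up 0.601% ± 0.0993 of the reads in cKO distal libraries and 0.233% ± 0.0967 in WT distal libraries (SD, n = 3 each), with ranges of 0.536 to 0.715% and 0.177 to 0.345% that did not overlap. With 3 libraries a group an exact two-sided permutation test cannot give a p below 0.1, so no p is given for these shares. In proximal intestine they made up 0.94% ± 0.119 in cKO and 0.811% ± 0.216 in WT libraries (SD, n = 3 each), and the ranges of 0.813 to 1.05% and 0.611 to 1.04% overlapped. The summed scaled reads of the 58 genes were 2.95-fold those of WT in cKO distal intestine, beside 2.08-fold for the summed enterocyte markers. Of these 5 markers 1 was called higher, and of those not called 3 lay above 0 and 1 below 0. The 5 epithelial markers, 2 of them called higher, summed to 99300 to 172000 in cKO distal and 71300 to 119000 in WT distal libraries, which overlapped. Set against 100 scaled reads of enterocyte markers, P450 genes had 29.4 ± 0.988 scaled reads in cKO distal and 21.1 ± 1.92 in WT distal libraries, and 42.7 ± 3.28 in cKO proximal and 45.5 ± 4.11 in WT proximal libraries (SD, n = 3 each). In RNA from mixed cells, fewer cells of a type and less RNA per cell cannot be told apart.

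The mean makeup of the P450 pool differed more between segments than between genotypes. Cyp4f14, which hydroxylates leukotriene B4, held 29.9% of P450 reads in cKO distal and 30% in WT distal libraries, but 10.4% in cKO proximal and 9.93% in WT proximal libraries. Cyp3a11, a Cyp3a drug oxidase related to human CYP3A4, held 4.7% in cKO distal, 4.75% in WT distal, 13.5% in cKO proximal and 22.4% in WT proximal libraries. Summed over the genes, 9.08% of P450 reads lay on other genes in cKO distal than in WT distal libraries, and 15% in cKO proximal than in WT proximal libraries. The same figure between distal and proximal segments was 32.1% in cKO and 39.4% in WT mice.

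**Figure D1:**
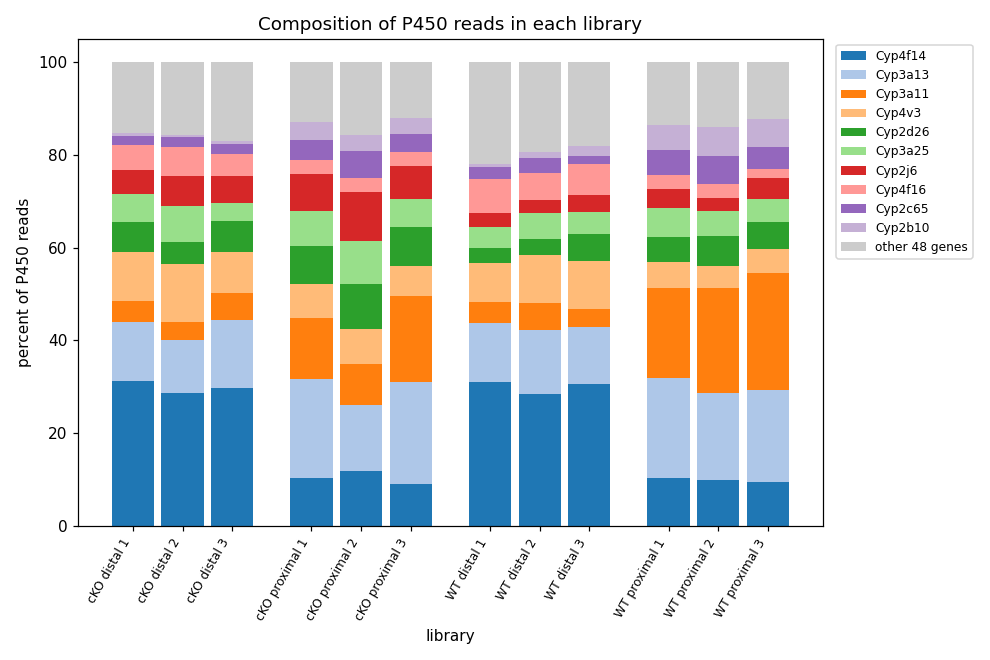
Percent of P450 reads (y axis) held by the 10 P450 genes with the highest mean percent over the libraries, with the other 48 summed, in each of the 12 libraries (1 bar each, x axis). Cyp4f14, at the foot of each bar, averages 29.9% in the cKO distal and 30% in the WT distal bars and 10.4% and 9.93% in the cKO proximal and WT proximal bars.

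Per kilobase of transcript, Cyp4f14 was the most abundant P450 gene in both distal groups, at 13640 scaled reads per kilobase in cKO and 4638 in WT libraries. In proximal segments it had 7359 in cKO and 6207 in WT libraries. Cyp3a13 led the cKO proximal group at 10440 scaled reads per kilobase (WT proximal 9493), and Cyp3a11 led the WT proximal group at 13010 (cKO proximal 9333). Behind these came Cyp2d26, Cyp3a25, Cyp2c65, Cyp4v3, Cyp2b10, Cyp4f16 and Cyp2j6 when ranked by the mean over all 12 libraries. Ranks differed between groups: Cyp2b10 had rank 18 in cKO distal and 15 in WT distal libraries, and rank 9 in cKO proximal and 5 in WT proximal libraries. At the other end, 17 of the 58 genes averaged under 10 scaled reads over the 12 libraries and 23 had 0 reads in at least 1 library. Cyp1a2 and Cyp2a12, known mainly from liver, were among the low ones.

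**Figure D2:**
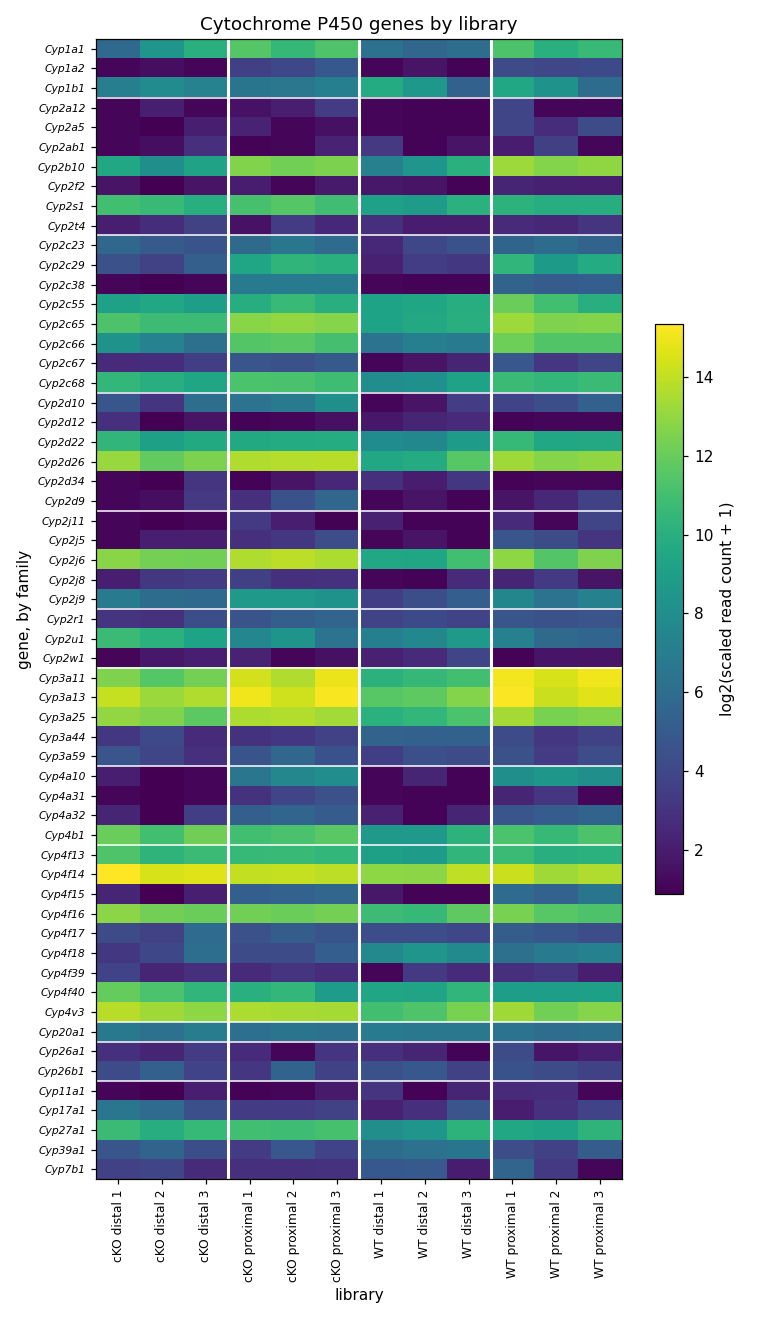
Level of each of the 58 P450 genes (rows, by family) in each of the 12 libraries (columns), as log2(scaled reads + 1) on the colour scale, where yellow is high and dark blue low. Most Cyp2c and Cyp4a rows are darker in the distal than in the proximal columns, and Cyp4f14 and Cyp3a13 are bright in all 12 columns.

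Sequence just before the transcription start is shown for 6 genes that the results turn on, namely Cyp1a1 and 3 Cyp2c genes for the segment differences and Cyp4f14 and Cyp4f40 for the distal intestine. Each is the 250 bases before a RefSeq start on GRCm38.p6, 5′ to 3′ on the gene's strand, from a window that overlaps no annotated exon. They lie at chr9:57697363-57697612 (plus strand) for Cyp1a1, chr19:39463076-39463325 (minus strand) for Cyp2c38, chr19:39060756-39061005 (plus) for Cyp2c65 and chr19:39113648-39113897 (plus) for Cyp2c66. Those of Cyp4f14 and Cyp4f40 lie at chr17:32917343-32917592 (minus) and chr17:32658636-32658885 (plus). Capitals mark matches on either strand to GCGTG (the core of the site bound by the Ahr complex), GATAA (GATA factors), CAAAGT (part of the site of HNF4 factors) and TATAAA (letters of the TATA box, at any distance from the start). No matches of different motifs shared letters in these windows.
Cyp1a1: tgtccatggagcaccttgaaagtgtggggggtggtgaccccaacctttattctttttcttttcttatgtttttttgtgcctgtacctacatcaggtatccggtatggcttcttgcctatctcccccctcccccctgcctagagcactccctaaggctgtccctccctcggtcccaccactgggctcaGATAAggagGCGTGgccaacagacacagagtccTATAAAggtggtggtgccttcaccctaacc
Cyp2c38: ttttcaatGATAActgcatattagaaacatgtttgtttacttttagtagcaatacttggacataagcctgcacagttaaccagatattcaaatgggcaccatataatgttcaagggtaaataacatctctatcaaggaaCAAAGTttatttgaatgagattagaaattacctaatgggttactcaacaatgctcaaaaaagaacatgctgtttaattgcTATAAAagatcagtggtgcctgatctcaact
Cyp2c65: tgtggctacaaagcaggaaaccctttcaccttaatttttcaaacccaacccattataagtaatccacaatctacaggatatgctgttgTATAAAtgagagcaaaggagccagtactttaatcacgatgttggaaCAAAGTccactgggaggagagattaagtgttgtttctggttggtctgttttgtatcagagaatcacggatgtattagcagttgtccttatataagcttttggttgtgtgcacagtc
Cyp2c66: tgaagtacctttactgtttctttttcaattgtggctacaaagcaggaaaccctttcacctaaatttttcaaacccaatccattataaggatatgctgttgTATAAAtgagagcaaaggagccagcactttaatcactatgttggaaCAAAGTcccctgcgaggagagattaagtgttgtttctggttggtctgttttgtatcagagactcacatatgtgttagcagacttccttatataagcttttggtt
Cyp4f14: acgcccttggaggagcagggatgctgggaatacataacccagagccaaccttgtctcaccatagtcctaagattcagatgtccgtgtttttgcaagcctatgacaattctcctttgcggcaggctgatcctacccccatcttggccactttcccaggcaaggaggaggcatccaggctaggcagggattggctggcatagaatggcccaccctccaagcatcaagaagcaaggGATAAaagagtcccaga
Cyp4f40: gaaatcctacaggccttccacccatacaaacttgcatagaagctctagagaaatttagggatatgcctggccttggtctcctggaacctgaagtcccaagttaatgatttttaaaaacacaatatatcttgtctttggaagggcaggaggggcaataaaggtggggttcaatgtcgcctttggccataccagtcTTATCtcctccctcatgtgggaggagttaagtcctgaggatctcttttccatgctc
The Cyp1a1 window held a GCGTG 54 bases and a TATAAA 30 bases before the start, and all 3 Cyp2c windows held CAAAGT, 111 bases before the start in Cyp2c38, 116 in Cyp2c65 and 104 in Cyp2c66. TATAAA lay 31 bases before the start in Cyp2c38, but 162 in Cyp2c65 and 150 in Cyp2c66. In the latter 2 genes it is therefore not taken as the TATA box of the start shown. Of 53 such windows, belonging to 47 of the 58 genes, 35.8% held CAAAGT, 34% TATAAA, 37.7% GATAA and 22.6% GCGTG. The shares among all 32851 RefSeq windows of the same length were 12.6% for CAAAGT, 12.4% for TATAAA, 22.6% for GATAA and 28.2% for GCGTG. A match describes the letters of a window and does not show that a factor binds there.

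Many P450 genes were higher in cKO than in WT distal libraries. Against WT distal libraries, 25 of the 58 genes passed an adjusted p of 0.05 in cKO distal libraries, where 25% of all 17175 genes did so. Of these, 22 rose (13.3% of all genes rose) and 3 fell (11.7% of all genes fell). The median log2 fold change was 0.512 over the 58 genes and 0.0601 over all genes. For the 58 genes it stayed at 0.512 when 3 with 0 reads in a group and no more than the floor of 3 reads in the other were counted as unchanged. It was 1.08 with edgeR, 1.11 with DESeq2, 0.888 with voom weights, 1.3 for the genes left by a filter at 10, 0.26 with a pseudocount of 10 and 0.933 without cKO distal 2. The genes that rose included 4 of 8 Cyp2c, 3 of 6 Cyp2d, 2 of 5 Cyp2j, 3 of 5 Cyp3a and 5 of 9 Cyp4f and Cyp4v genes, with fold changes of 2.24 to 5.79. In 16 of the 22 the groups did not overlap. That share was not computed over all genes that rose, so it has no background to be set against.

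The lowest adjusted p among the genes that rose was that of Cyp2j6, of a subfamily that epoxidises arachidonic acid, with 6908, 5172 and 4992 scaled reads in cKO distal libraries and 722, 695 and 1972 in WT distal libraries (log2 change 2.50 ± 0.39 (SE), adjusted p = 0.000464). Every cKO library stood above every WT library. Its neighbour Cyp2j9 had 115, 63.1 and 56.4 in cKO distal and 11, 19.5 and 35.8 in WT distal libraries (log2 change 1.85 ± 0.41 (SE), adjusted p = 0.0051), again without overlap. Cyp2d26 and Cyp2d22 are relatives of human CYP2D6. Cyp2d26 had 8827, 3751 and 5715 in cKO distal and 753, 866 and 3053 in WT distal libraries (log2 change 2.19 ± 0.43 (SE), adjusted p = 0.00251), and Cyp2d22 1329, 543 and 809 against 236, 195 and 470.1 (log2 change 1.58 ± 0.36 (SE), adjusted p = 0.00641). In both genes the groups were separate, and the third WT library was the highest of its group. Cyp2d10 also rose, at 25.4, 7.47 and 67 in cKO distal against 1.22, 2.06 and 10.5 in WT distal libraries (log2 change 2.54 ± 0.77 (SE), adjusted p = 0.0275), with overlapping groups.

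The 3 abundant Cyp3a genes, which oxidise a wide range of drugs and steroids, rose together. Cyp3a13 had 17226, 9192 and 12655 scaled reads in cKO distal and 3060, 3518 and 6507 in WT distal libraries (log2 change 1.61 ± 0.38 (SE), adjusted p = 0.00682). Cyp3a11 had 6024, 3005 and 5093 against 1139.7, 1463 and 2009 (log2 change 1.59 ± 0.35 (SE), adjusted p = 0.00498), and Cyp3a25 8138, 6304 and 3387 against 1109, 1435 and 2478 (log2 change 1.82 ± 0.36 (SE), adjusted p = 0.00234). No cKO library of these 3 genes reached down to a WT library. The low gene Cyp3a44 went the other way, with 8.48, 15.8 and 5.32 in cKO distal and 43.8, 41.1 and 41.1 in WT distal libraries (log2 change -2.10 ± 0.43 (SE), adjusted p = 0.00308), and all 3 WT libraries lay close together above the cKO libraries.

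Of the Cyp2c genes, which act on drugs and on arachidonic acid, Cyp2c65 had 2585, 1809.6 and 1775 scaled reads in cKO distal and 619.8, 789 and 981 in WT distal libraries (log2 change 1.37 ± 0.23 (SE), adjusted p = 0.000851). Cyp2c29 was low in this segment, at 21.2, 11.6 and 37.2 in cKO and 3.65, 10.3 and 8.43 in WT libraries (log2 change 1.48 ± 0.48 (SE), adjusted p = 0.037), and Cyp2c68 and Cyp2c23 rose as well by 1.46 and 1.41 on the log2 scale. None of these 4 genes had overlapping groups. Cyp2s1, an epithelial member found mainly outside the liver, had 2028, 1563 and 1014 in cKO distal and 571, 454 and 1102 in WT distal libraries (log2 change 1.16 ± 0.31 (SE), adjusted p = 0.0144), where the lowest cKO library lay below the highest WT library.

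Family 4 contributed the most reads. Cyp4f14 had 41890.1, 23174 and 25801 scaled reads in cKO distal and 7536, 7278 and 16090.3 in WT distal libraries (log2 change 1.61 ± 0.35 (SE), adjusted p = 0.00484). Its groups did not overlap, although the third WT library held more than the other WT libraries. Cyp4v3, whose human counterpart CYP4V2 is mutated in a crystalline retinal dystrophy, had 13979.6, 10205 and 7698 against 2042, 2663 and 5472 (log2 change 1.74 ± 0.35 (SE), adjusted p = 0.00286), and Cyp4f16 7248, 4978 and 4194 against 1809, 1509.6 and 3485 (log2 change 1.33 ± 0.33 (SE), adjusted p = 0.00972). Cyp4b1, which hydroxylates medium-chain fatty acids and activates some plant toxins, rose as well, with 4295, 2003 and 4719 in cKO distal and 425, 410 and 1201 in WT distal libraries (log2 change 2.53 ± 0.40 (SE), adjusted p = 0.000523). The groups of these 3 genes were separate too. Cyp4f40 rose although its groups overlapped, with 3916, 2435 and 1360 in cKO distal and 686, 640.2 and 1372 in WT distal libraries (log2 change 1.48 ± 0.42 (SE), adjusted p = 0.0205), and so did Cyp4f13 (1.32).

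Cyp2u1, a hydroxylase of long-chain fatty acids, had 1731, 1128 and 619.9 scaled reads in cKO distal and 138, 197 and 410.1 in WT distal libraries (log2 change 2.25 ± 0.54 (SE), adjusted p = 0.00852), without overlap. Among sterol and steroid enzymes, the mitochondrial sterol 27-hydroxylase Cyp27a1 had 1702, 934 and 1549 in cKO distal and 262, 336 and 1209 in WT distal libraries (log2 change 1.51 ± 0.45 (SE), adjusted p = 0.0241). Cyp17a1, known for androgen synthesis, stood at 94.3, 59.7 and 20.2 in cKO distal and 3.65, 6.17 and 25.3 in WT distal libraries (log2 change 2.38 ± 0.68 (SE), adjusted p = 0.0199). In both, the third WT library lay inside the cKO range. The oxysterol 7-hydroxylase Cyp39a1 fell, with 25.4, 45.6 and 19.1 in cKO distal and 63.3, 78.1 and 89.6 in WT distal libraries (log2 change -1.41 ± 0.46 (SE), adjusted p = 0.0391), and its groups were separate.

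The Ahr target Cyp1a1 did not pass the test, and its cKO distal libraries were far apart. It had 56.2, 339 and 1066 scaled reads in cKO distal libraries and 79.1, 49.3 and 68.5 in WT distal libraries (log2 change 2.07 ± 0.73 (SE), adjusted p = 0.0514). The first cKO library lay inside the WT range and the third was the highest. Cyp2b10, the classic Nr1i3 target, was likewise not called, at 726, 274 and 599 in cKO distal and 146, 344 and 1070 in WT distal libraries (log2 change 0.38 ± 0.53 (SE), adjusted p = 0.643). Nor were Cyp26a1 (0.81 (adjusted p = 0.44)) and Cyp20a1 (-0.08 (adjusted p = 0.844)).

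Of these 25 calls, 14 held whichever library was left out. Leaving out cKO distal 1 ended the other 11 (Cyp17a1, Cyp27a1, Cyp2c23, Cyp2c29, Cyp2d10, Cyp2s1, Cyp2u1, Cyp39a1, Cyp4f13, Cyp4f16 and Cyp4f40) and gave 15 calls in all, WT distal 1 or WT distal 2 ended 9 of them each and gave 16, cKO distal 3 ended 4, cKO distal 2 ended 3, and WT distal 3, cKO proximal 1, cKO proximal 3, WT proximal 2 and WT proximal 3 ended 1 each. Without both cKO libraries numbered 1, the same 11 calls ended and so did those of Cyp3a13 (log2 fold change 1.39, adjusted p = 0.0516) and Cyp2d22 (1.25, adjusted p = 0.0553), which left 12 of the 25 and 13 calls in all. When the mitochondrial share entered the fit 5 calls remained (Cyp2c65, Cyp2j6, Cyp4b1, Cyp3a44 and Cyp4f18) and the median log2 fold change of the 58 genes was 0.824. With the level of the enterocyte markers as a covariate, chosen after seeing the data, none of the 25 remained, 1 other gene was called and that median was 0.267. The share of all genes called in these refits is not set beside the counts here. The loss of calls is therefore not a result about P450 genes alone.

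**Figure D3:**
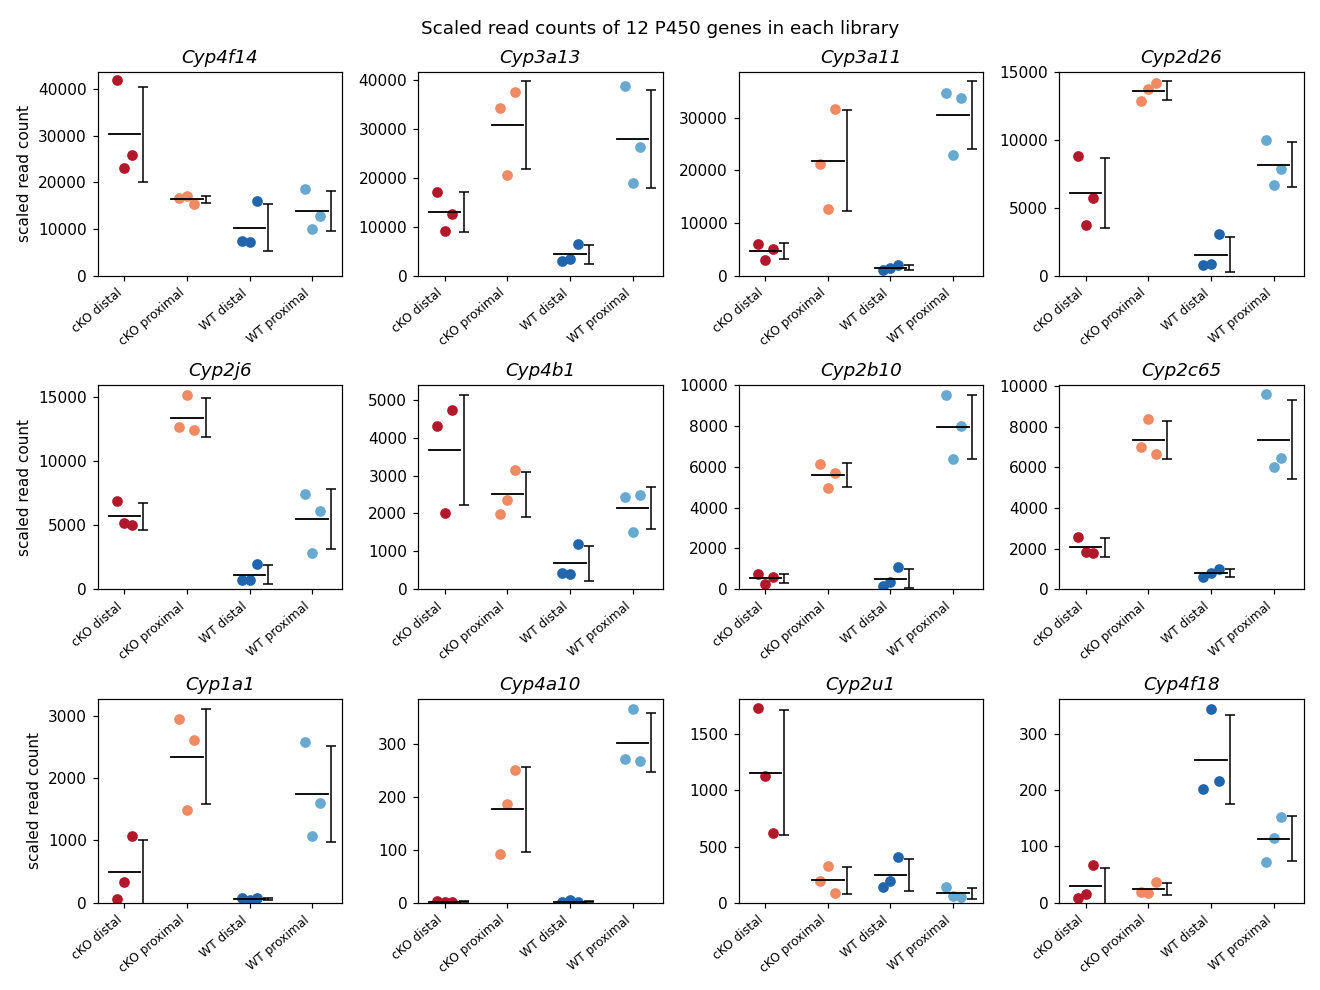
Scaled reads (y axis, linear) of 12 P450 genes in the 3 libraries of each group (points, in order of their number), with the mean (line) and SD (bar, cut off at 0). In distal intestine the cKO points of Cyp4f14, Cyp3a11 and Cyp2j6 lie above the WT points, and in proximal intestine the groups of Cyp4f14 and Cyp3a11 overlap.

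In the proximal intestine, few P450 genes differed between the genotypes. Against WT proximal libraries, 6 of the 58 genes passed the threshold in cKO proximal libraries, or 10.3%, near the 8.26% of all genes. Of these 4 rose (4.21% of all genes rose) and 2 fell (4.05% of all genes fell). The median log2 fold change was 0.183 over the 58 genes (0.159 when 2 genes with 0 reads in a group and no more than the floor in the other were counted as unchanged) and 0.0842 over all genes. It was 0.342 without WT proximal 1, 0.0732 without WT proximal 2, 0.107 with edgeR, 0.11 with a pseudocount of 10, 0.288 for the genes left by a filter at 10, and -0.0442 with the mitochondrial share and 0.0633 with the enterocyte marker level as a covariate.

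The gene with the lowest adjusted p was Cyp2c38, a Cyp2c gene, with 115, 119.7 and 116 scaled reads in cKO proximal and 43.1, 32.6 and 35.5 in WT proximal libraries (log2 change 1.64 ± 0.33 (SE), adjusted p = 0.0103). Its 3 cKO libraries lay within a narrow range well above the WT libraries. The epoxygenases Cyp2j6 and Cyp2j9 rose here as in distal intestine. Cyp2j6 had 12631, 15173 and 12389 in cKO proximal and 7465, 2857 and 6088 in WT proximal libraries (log2 change 1.40 ± 0.39 (SE), adjusted p = 0.0418), and Cyp2j9 396, 400.5 and 312 against 185, 84.2 and 147 (log2 change 1.47 ± 0.41 (SE), adjusted p = 0.0428). Cyp2s1 had 2235, 2980.3 and 1893 in cKO proximal and 1197, 955 and 947 in WT proximal libraries (log2 change 1.18 ± 0.31 (SE), adjusted p = 0.0338). None of these genes had overlapping groups, and Cyp2j6, Cyp2j9 and Cyp2s1 were the 3 genes that rose in both segments.

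The coumarin hydroxylase Cyp2a5 was called lower from few reads, with 3, 0 and 1 reads in cKO proximal and 12, 4 and 15 reads in WT proximal libraries (log2 change -1.96 ± 0.51 (SE), adjusted p = 0.0312). Most abundant genes that rose in distal intestine were not called here. Cyp3a11 had 21147, 12723 and 31758 scaled reads in cKO proximal and 34716, 23032 and 33706 in WT proximal libraries (log2 change -0.55 ± 0.35 (SE), adjusted p = 0.353), and Cyp4f14 16581, 17006 and 15444 against 18499, 10075 and 12784 (log2 change 0.29 ± 0.35 (SE), adjusted p = 0.65). The groups of both overlapped. Cyp4b1 stood at 0.23 (adjusted p = 0.766) and Cyp2b10 at -0.50 (adjusted p = 0.596) on the log2 scale. Only the call of Cyp2c38 held whichever library was left out: the count of calls was 1 without cKO proximal 2 and 2 without cKO proximal 1, cKO proximal 3, WT proximal 2 or WT proximal 3, and cKO distal 2, WT distal 2 and WT proximal 1 ended 2, 1 and 1 calls. It was 2 without both cKO libraries numbered 1 (Cyp2c38 and Cyp2a5) and 0 when the mitochondrial share entered the fit, and TMM scaling moved the median of all genes to -0.0279 and that of the 58 genes to 0.0864.

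**Figure D4:**
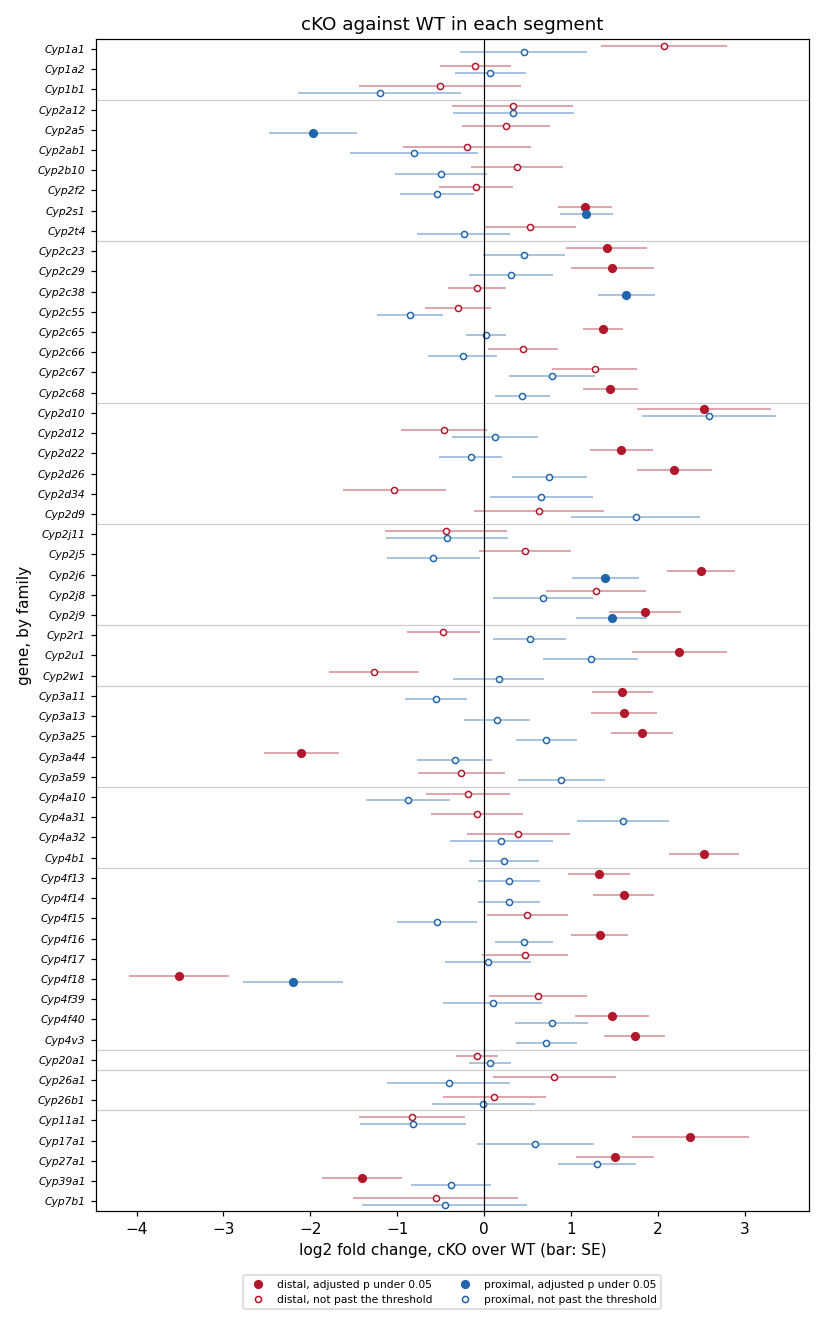
Log2 fold change (bar: SE) of each P450 gene between cKO and WT, with distal and proximal segments drawn side by side; filled points passed an adjusted p of 0.05. In distal intestine 22 filled points lie right of 0 and 3 left of it, and in proximal intestine 4 and 2.

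Cyp4f18, which hydroxylates leukotriene B4 in mouse neutrophils, was the only gene that fell in both segments. It had 8.48, 14.9 and 67 scaled reads in cKO distal and 202, 345 and 216 in WT distal libraries (log2 change -3.51 ± 0.58 (SE), adjusted p = 0.000721), and 18.2, 18 and 36.3 in cKO proximal and 72.6, 116 and 153 in WT proximal libraries (log2 change -2.20 ± 0.58 (SE), adjusted p = 0.0342). The groups were separate in both segments, and the proximal call ended without cKO proximal 1, cKO proximal 2, WT proximal 2 or WT proximal 3. Of 5 myeloid markers, 3 fell in cKO distal and 3 in cKO proximal libraries, and their summed level was 3450 to 5220 in cKO distal against 5260 to 22500 in WT distal libraries, and 2800 to 3790 in cKO proximal against 9400 to 16300 in WT proximal libraries. All 5 B cell markers fell in distal and 2 in proximal cKO libraries. The part of these cells in the fall of Cyp4f18 was not tested. Cyp1b1, a family 1 enzyme of stromal cells, was not called in any comparison, with 136, 229 and 155 scaled reads in cKO distal and 895, 381 and 40.1 in WT distal libraries. In proximal segments it had 90.9, 98.5 and 138 in cKO and 766, 317 and 62.3 in WT libraries. The WT libraries numbered 1 were high and those numbered 3 low in both segments, and the summed level of 6 fibroblast markers was 5030 to 5430 in cKO distal and 2020 to 23700 in WT distal libraries, and 1950 to 3300 in cKO proximal and 2930 to 19700 in WT proximal libraries. The part of stromal cells in the spread of Cyp1b1 was not tested.

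Along the intestine of both genotypes, P450 genes were mostly lower in the distal than in the proximal segment. In cKO mice 19 of the 58 genes differed, where 10.5% of all genes did. There 17 were lower distally (6.36% of all genes) and 2 higher (4.16% of all genes), with a median log2 fold change of -0.629 over the 58 genes (-0.453 with 3 genes that had a group at 0 reads set to their bound) and -0.0162 over all genes. In WT mice 29 differed, where 24.1% of all genes did: 26 were lower distally (12.2% of all genes) and 3 higher (11.9% of all genes). The medians in WT mice were -1.03 (-0.828 with 6 genes that had a group at 0 reads set to their bound or, where the other group was not above the floor, counted as unchanged) and 0.045. Both genotypes called the same 15 genes lower and 1 gene higher, and the 15 are 88.2% of the 17 lower genes of cKO mice and 57.7% of the 26 of WT mice.

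Of the 8 Cyp2c genes, 6 were lower distally in cKO and all 8 in WT mice. Cyp2c38 had reads in proximal libraries only: 0 in each distal library, and 115, 119.7 and 116 scaled reads in cKO proximal and 43.1, 32.6 and 35.5 in WT proximal libraries. Against a floor of 3 reads per library it was at least 39.2-fold lower distally in cKO and at least 10.9-fold lower in WT mice (adjusted p = 9.54e-08 in cKO and 1.33e-06 in WT). Cyp2c29 had 21.2, 11.6 and 37.2 in cKO distal against 701, 1297 and 1088 in cKO proximal libraries (log2 change -5.50 ± 0.48 (SE), adjusted p = 5.08e-06), and 3.65, 10.3 and 8.43 in WT distal against 1374, 428 and 877 in WT proximal libraries (log2 change -6.67 ± 0.48 (SE), adjusted p = 5.69e-07). Cyp2c66 had 310.4, 156 and 72.3 in cKO distal and 2859, 3203 and 2147 in cKO proximal libraries (log2 change -4.14 ± 0.40 (SE), adjusted p = 1.17e-05), and 84, 137 and 119 in WT distal and 4496, 2709.6 and 2699 in WT proximal libraries (log2 change -4.84 ± 0.40 (SE), adjusted p = 1.71e-06). In each of these genes the lowest proximal library was far above the highest distal library. Cyp2c65, whose transcript is 96.4% identical to that of Cyp2c66 over 1611 bases, had 2585, 1809.6 and 1775 scaled reads in cKO distal and 7016, 8389.9 and 6638 in cKO proximal libraries (log2 change -1.85 ± 0.23 (SE), adjusted p = 0.000123), and -3.20 on the log2 scale in WT mice.

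Among Ppara targets, Cyp4a10 was close to silent distally, with 2, 0 and 0 reads in cKO distal and 0, 3 and 0 reads in WT distal libraries. Its proximal values were 91.9, 186 and 251 scaled reads in cKO and 272, 366 and 268 in WT libraries, and the log2 fold changes were -6.03 (adjusted p = 2.73e-06) in cKO and -6.71 (adjusted p = 5.69e-07) in WT mice. Cyp4a32 was lower distally in both genotypes as well (-3.04 in cKO, -3.23 in WT), and Cyp4a31 in cKO mice, where it had 0 distal reads and was at least 4.43-fold lower. Cyp4f15 had 3, 0 and 2 reads in cKO distal and 1, 0 and 0 reads in WT distal libraries, against 35, 38 and 51 in cKO proximal and 57, 36 and 83 in WT proximal libraries. It was lower distally by -3.64 (adjusted p = 0.000151) in cKO and -4.68 (adjusted p = 1.07e-05) in WT mice.

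Of the genes of families 1 and 3 and Cyp2b10, those called lower distally in both genotypes were Cyp1a1, Cyp1a2, Cyp2b10, Cyp3a11 and Cyp3a13. Cyp1b1 and Cyp3a59 were called in neither, Cyp3a25 was called lower in WT mice and Cyp3a44 higher in WT mice. Cyp1a1 had 56.2, 339 and 1066 scaled reads in cKO distal and 2947, 1479 and 2605 in cKO proximal libraries (log2 change -3.03 ± 0.73 (SE), adjusted p = 0.0156), and 79.1, 49.3 and 68.5 in WT distal and 2582, 1065 and 1602 in WT proximal libraries (log2 change -4.65 ± 0.73 (SE), adjusted p = 0.000486). The third cKO distal library came near the proximal values, and the WT groups were far apart. Cyp1a2 had 0, 1 and 0 reads in cKO distal and 10, 13 and 29 in cKO proximal libraries, and 0, 1 and 0 in WT distal and 15, 12 and 14 in WT proximal libraries, and was lower distally in both genotypes (-2.98 in cKO, -2.81 in WT). Cyp2b10 had 726, 274 and 599 in cKO distal and 6152, 4960.4 and 5694 in cKO proximal libraries (log2 change -3.50 ± 0.53 (SE), adjusted p = 0.000571), and 146, 344 and 1070 in WT distal and 9519.9, 6401 and 7987 in WT proximal libraries (log2 change -4.38 ± 0.53 (SE), adjusted p = 5.81e-05). Cyp3a11 was lower distally by -2.18 (adjusted p = 0.00103) in cKO and -4.32 (adjusted p = 1.64e-06) in WT mice, Cyp3a13 by -1.24 (adjusted p = 0.0495) and -2.71 (adjusted p = 0.000199). In these 5 genes the segments did not overlap in either genotype.

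Another 11 genes were called lower distally in WT mice and were not called in cKO mice. Among them were Cyp2d22 (-0.03 (adjusted p = 0.975) in cKO, -1.77 (adjusted p = 0.00331) in WT), Cyp2d26 (-1.25 (adjusted p = 0.0859) in cKO, -2.68 (adjusted p = 0.000599) in WT) and Cyp4b1 (0.49 (adjusted p = 0.507) in cKO, -1.82 (adjusted p = 0.00502) in WT). The same held for Cyp3a25 (-1.10 (adjusted p = 0.0654) in cKO, -2.20 (adjusted p = 0.000599) in WT) and Cyp2j6 (-1.25 (adjusted p = 0.0572) in cKO, -2.34 (adjusted p = 0.000727) in WT). With the replicate number as a block, which pairs the segments, the cKO mice also passed for Cyp2d26 (adjusted p = 0.0427), Cyp3a25 (adjusted p = 0.036) and Cyp2j6 (adjusted p = 0.0127) at the same fold changes, and for Cyp2d10, Cyp2d9 and Cyp2j5, lower distally, and Cyp17a1, higher distally. In WT mice the block added Cyp27a1, lower distally, and Cyp2d34, Cyp4f18 and Cyp4f40, higher distally. The test of the difference between genotypes, given further on, called none of the 11 in limma without the block. It called Cyp4b1 with the block, Cyp2d22 and Cyp4b1 with DESeq2, and Cyp2d22, Cyp2d26 and Cyp4b1 in limma without WT distal 3.

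A few genes ran the other way. Cyp2u1 was higher distally in both genotypes, with 1731, 1128 and 619.9 scaled reads in cKO distal and 193, 324 and 82.9 in cKO proximal libraries (log2 change 2.61 ± 0.54 (SE), adjusted p = 0.00652), and 138, 197 and 410.1 in WT distal and 142, 58.4 and 47.3 in WT proximal libraries (log2 change 1.59 ± 0.54 (SE), adjusted p = 0.0471). The cKO segments were separate, and the WT segments overlapped by the first proximal library. Cyp4f40 was higher distally in cKO mice, at 3916, 2435 and 1360 in cKO distal and 1052, 1419 and 450.2 in cKO proximal libraries (log2 change 1.42 ± 0.42 (SE), adjusted p = 0.0459), with overlap. Cyp39a1 and Cyp3a44 were higher distally in WT mice. Cyp39a1 had 63.3, 78.1 and 89.6 in WT distal and 18.9, 12.3 and 34.4 in WT proximal libraries (log2 change 1.87 ± 0.46 (SE), adjusted p = 0.00963), and Cyp3a44 43.8, 41.1 and 41.1 against 16.8, 7.86 and 11.8 (log2 change 1.76 ± 0.43 (SE), adjusted p = 0.00875). Cyp4f14 itself was called in neither genotype (0.84 (adjusted p = 0.158) in cKO, -0.48 (adjusted p = 0.367) in WT).

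In cKO mice 6 of the 19 segment calls (Cyp1a1, Cyp2c67, Cyp2c68, Cyp2r1, Cyp3a13 and Cyp4f40) ended when 1 library was left out: all 6 without cKO proximal 3, which left 13 calls, 5 without cKO distal 2 or cKO proximal 1, 3 without cKO distal 1 or cKO proximal 2, 2 without cKO distal 3, WT distal 1, WT distal 2, WT proximal 2 or WT proximal 3, and 1 without WT proximal 1. Without both cKO libraries numbered 1 these 6 calls and that of Cyp2u1 ended (adjusted p = 0.0759), which left 12. In WT mice 3 of the 29 calls ended in this way: Cyp2d10 without WT distal 1, WT distal 2, WT proximal 2 or WT proximal 3, Cyp4v3 without WT distal 1, WT distal 2, WT proximal 1 or WT proximal 3, and Cyp2u1 without WT distal 2, WT distal 3, WT proximal 2, WT proximal 3, cKO distal 2 or cKO proximal 1. With the enterocyte marker level in the fit 18 of the 29 remained, and the median log2 fold change of the 58 genes was -0.921. The enterocyte marker sum of WT distal libraries was 0.545-fold that of WT proximal libraries, and the P450 sum 0.248-fold. Of the 5 enterocyte markers 2 were called lower distally in WT mice, and of those not called 2 lay below 0 and 1 above 0.

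**Figure D5:**
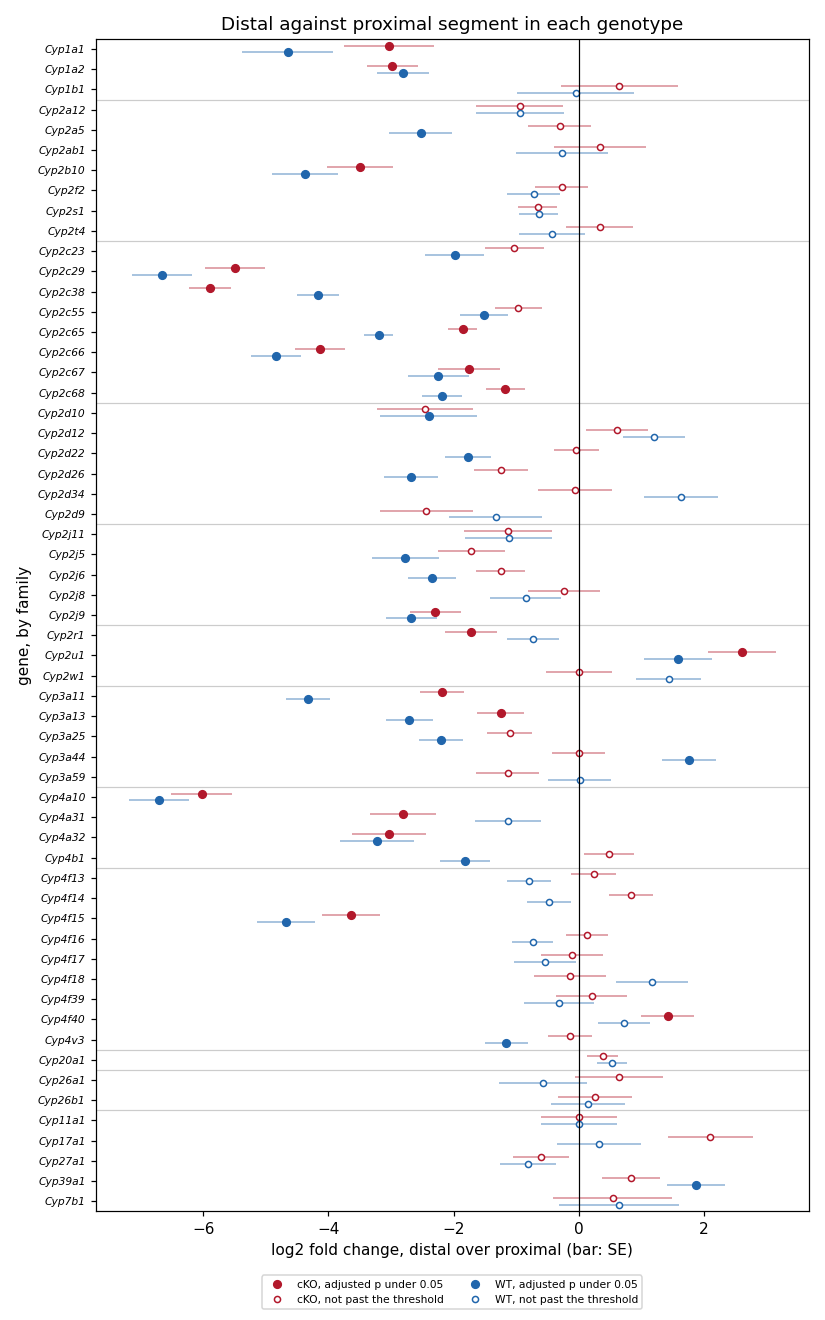
Log2 fold change (bar: SE) of each P450 gene between distal and proximal segments in cKO and in WT mice; filled points passed an adjusted p of 0.05. The Cyp2c and Cyp4a genes lie left of 0 in both genotypes, and Cyp2u1 lies right of 0 in both.

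Whether the genotype difference itself depended on the segment was tested with the interaction term. No P450 gene passed an adjusted p of 0.05 in limma without a block, where 0.576% of all genes did (0.175% with a positive and 0.402% with a negative term). That fit treated the 12 libraries as independent, although their numbers paired the segments. At an unadjusted p under 0.05 there were 13 of the 58 genes, and 2265 of all 17175. Of the 13, 10 had a positive term, meaning a log2 difference of cKO minus WT that was higher in distal than in proximal intestine. The signs of the 2265 were not counted, so these 10 have no background to be set against. Over all terms, 39 of the 58 genes and 8556 of all 17175 lay above 0. The lowest adjusted p were those of Cyp3a11 (log2 change 2.15 ± 0.50 (SE), adjusted p = 0.07), Cyp2c65 (log2 change 1.35 ± 0.33 (SE), adjusted p = 0.0796) and Cyp4b1 (log2 change 2.30 ± 0.57 (SE), adjusted p = 0.0817). Cyp2c38 went the other way (log2 change -1.72 ± 0.47 (SE), adjusted p = 0.108), with reads in proximal libraries only. With the replicate number as a block, which pairs the segments, 2 genes passed (Cyp3a11, adjusted p = 0.0147, and Cyp4b1, adjusted p = 0.0162). Without the block DESeq2 called 4 (Cyp2c65, Cyp2d22, Cyp3a11 and Cyp4b1), edgeR 0, and limma without WT distal 3 called these 4 and Cyp2d26. Limma without the block and without both cKO libraries numbered 1 called 0.

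The P450 genes lie in clusters of neighbours, and neighbours did not all move together. With gaps of at most 500 kb, 9 clusters held 42 of the 58 genes. In the Cyp2c cluster on chromosome 19 (39007019 to 39741054), all 7 genes were lower distally in WT mice. In the Cyp4f cluster on chromosome 17 (32452723 to 32947402), 4 of 7 genes rose in cKO distal intestine and the log2 fold changes of all 7 lay between 0.47 and 1.61, whereas between WT segments Cyp4f15 alone was called, at -4.68. In the Cyp3a cluster on chromosome 5 (145773983 to 146113287), Cyp3a11 and Cyp3a25 rose and Cyp3a44 fell in cKO distal intestine, and Cyp3a59 was not called. In the cluster of Cyp4a and Cyp4b genes on chromosome 4 (115518264 to 115647723), Cyp4b1 rose in cKO distal intestine beside 3 Cyp4a genes with at most 10.6 scaled reads in any library of that group. For 17 genes another P450 transcript is at least 95% identical over 300 bases or more, so reads may have been split between copies, as between Cyp3a25 and Cyp3a59 (98.1%), Cyp4a10 and Cyp4a32 (97.8%), Cyp4f16 and Cyp4f37 (98.2%), Cyp2d10 and Cyp2d11 (96.7%), Cyp2a5 and Cyp2a4 (99.1%) or Cyp3a44 and the pseudogene Cyp3a63-ps (95.6%). Cyp3a11 and Cyp3a41a are 94.7% identical.

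Genes that supply or control P450 enzymes were read from a list of 34, all measured, which holds electron donors, haem synthesis, haem breakdown and regulators. In cKO distal against WT distal libraries 12 rose and 1 fell, in all 38.2% against 25% of all genes. The rises were 5 of 8 electron donors, 4 of 8 haem synthesis enzymes and 3 of 14 regulators. Por, the reductase that feeds electrons to microsomal P450s, had 10832, 4194 and 11158 scaled reads in cKO distal and 1279.8, 1216 and 4057 in WT distal libraries (log2 change 2.11 ± 0.46 (SE), adjusted p = 0.00457). Nr1i3 had 105, 108 and 46.8 in cKO distal and 8.52, 23.6 and 29.5 in WT distal libraries (log2 change 2.09 ± 0.41 (SE), adjusted p = 0.00237), and Ppara 648, 799.9 and 547 against 114, 310.3 and 344 (log2 change 1.51 ± 0.37 (SE), adjusted p = 0.00872). In Por the lowest cKO library lay just above the highest WT library. Cpox and Alad of haem synthesis rose by 1.06 and 0.81 on the log2 scale, and the biliverdin reductase Blvrb fell (-1.33 (adjusted p = 0.00155)). Ahr (-0.14 (adjusted p = 0.719)) and Nr1i2 (0.52 (adjusted p = 0.106)) were not called.

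In cKO proximal against WT proximal libraries 3 of the 34 were called, or 8.82%, near the 8.26% of all genes: Cpox (1.31 (adjusted p = 0.00203)) and the Ahr target Tiparp (0.59 (adjusted p = 0.0427)) rose, and Blvrb fell (-1.06 (adjusted p = 0.0188)). Between segments, 1 was higher and 9 lower distally in cKO mice, in all 29.4% against 10.5% of all genes, and 2 were higher and 17 lower in WT mice, in all 55.9% against 24.1% of all genes. The bile acid receptor Nr1h4 was higher distally in cKO (1.48 (adjusted p = 0.00113)) and WT mice (1.44 (adjusted p = 0.000773)). Nr1i3 had 325, 385 and 308 scaled reads in cKO proximal and 192, 162 and 225 in WT proximal libraries, and was lower distally by -2.05 (adjusted p = 0.00495) in cKO and -3.32 (adjusted p = 7.21e-05) in WT mice. Ahr was lower distally too (-1.57 (adjusted p = 0.000578) in cKO, -1.07 (adjusted p = 0.00502) in WT), as were Cyb5r3 (-1.91 (adjusted p = 0.000485) in cKO, -2.70 (adjusted p = 1.69e-05) in WT) and Pparg (-2.53 (adjusted p = 0.000874) in cKO, -2.86 (adjusted p = 0.000211) in WT). Cpox had the lowest adjusted p of the list in cKO mice (-1.94 (adjusted p = 2.32e-05) in cKO, -1.70 (adjusted p = 4.97e-05) in WT). Nr0b2 had the largest change (-3.92 (adjusted p = 0.00134) in cKO, -4.61 (adjusted p = 0.000246) in WT), at a mean of 15.0 scaled reads in cKO distal and 4.57 in WT distal libraries. Por was lower distally in WT mice (-2.27 (adjusted p = 0.00289)) and was not called in cKO mice (-0.59 (adjusted p = 0.476)).

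Over the 4 comparisons between groups, 39 of the 58 P450 genes (67.2%) were called at least once, against 42.1% of all genes, and 19 in none. Among the 19 were the retinoic acid enzymes Cyp26a1, with 6.36, 4.15 and 9.57 scaled reads in cKO distal and 6.09, 4.11 and 1.05 in WT distal libraries, and Cyp26b1. Cyp20a1, a member without an agreed substrate, stayed between 66.2 and 125 scaled reads in all 12 libraries and was called in none.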

How the data were processed

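RNA was sequenced from small intestine in 4 groups of 3 libraries. The labels' protocols name Trizol extraction and NuGEN's Ovation kit. Alignment used STAR (mm10) and analysis DESeq2 1.28.1, per the submitters' processing notes. The values the authors deposited are a signal scaled per library. Each is a whole multiple of its column's step (largest deviation 1e-08 steps), so it was taken as (reads + 1) divided by a size factor, and whole reads were recovered for the count tools. All 206100 values came out whole, and 0 value columns lacked a sample. The planned count test assumed read counts, so the test fixed for scaled values was used instead.

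The test was limma-trend (limma 3.58.1, R 4.3.3) of log2(value + 1), fitted to the 12 libraries with a mean per group, and Benjamini-Hochberg adjusted p under 0.05 over all 17175 genes. Fold changes are on that scale and are understated for low genes. Requiring 3 libraries at 1 or more removed 0 genes. In most libraries the value at 0 reads was itself above 1, so this filter could not remove a gene. A gene listed near 1 has 0 reads. Where a group had 0 reads, a floor of 3 reads per library, which covers counting error only, bounds the fold. Alternatives were edgeR 4.0.16, DESeq2 1.42.0, voom weights, TMM scaling, pseudocounts 0.1 and 10, a filter at 10, covariates, a replicate block and libraries left out. The limma test was checked on simulated data. Libraries of the same number deviated together between segments of a genotype (correlations 0.22 to 0.41, each highest with its own number) and not between genotypes (-0.19 to 0.071), so the numbers pair segments.

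Lengths are those of the longest basic protein coding transcript, and promoters are RefSeq's on GRCm38.p6. The members and lists were chosen with earlier results of these data known. Named were, in each comparison, up to 8 called genes per direction with a mean of at least 10 scaled reads and the largest change, the 10 highest per kilobase and the gene with the lowest p of each family group. Cyp11a1, Cyp26b1, Cyp2a12, Cyp2c23, Cyp2c67, Cyp2c68, Cyp2d34, Cyp2j5, Cyp2r1, Cyp3a59, Cyp4f13 and Cyp7b1 were named after their values were seen.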

Additional observations from a re-analysis of the deposited data

How the results depend on the processing

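The number of P450 genes called lay within 1.5 times the reported one, except as follows. With the mitochondrial share as a covariate it was 0 for cKO against WT in proximal and 5 in distal intestine. Without both cKO libraries numbered 1 it was 2 in proximal and 13 in distal intestine, and 12 for distal against proximal segments in cKO mice. With the enterocyte marker level as a covariate, chosen after seeing the data, it was 1 for cKO against WT in distal intestine, where 596 of all genes were then called, and 18 for distal against proximal segments in WT mice. In cKO against WT distal intestine Cyp27a1 (log2 fold change -0.052, adjusted p = 0.983) and Cyp4f13 (-0.0945, adjusted p = 0.937) changed sign. For the interaction it was 1 with TMM scaling (Cyp2c65), 4 with DESeq2, 1 with a pseudocount of 10 (Cyp2c38) and 2 with the replicate block. The replicate block ended no call between segments and added 7 in cKO (26 in all) and 4 in WT mice (33 in all). Between genotypes, where the numbers did not pair libraries, it left the 25 distal calls as they were, and in proximal intestine it ended that of Cyp2j9 (adjusted p = 0.0541) and added Cyp27a1 and Cyp2d10. Leaving out each library gave 1 to 8 calls in proximal and 15 to 27 in distal intestine between genotypes, 13 to 24 between segments in cKO and 26 to 32 in WT mice, and 0 to 5 for the interaction. The median log2 fold change between segments was -0.327 in cKO and -0.68 in WT mice with a pseudocount of 10, and -1.12 in cKO and -1.79 in WT mice for genes left by a filter at 10. In WT mice it was -1.65 with edgeR, -1.68 with DESeq2 and -1.54 with voom weights. The cause of these differences was not tested. Apart from the 596 genes named above, counts over all genes in these other fits are not given here. A change in the number of P450 calls between fits is therefore not read as particular to P450 genes. Genes with under 10 scaled reads limit the depth of any statement on them.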
